A study of Mus musculus with 4 samples.

Results

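The genes described here carry glucose into the cell, convert it to pyruvate, interconvert pyruvate and lactate, and control the entry of pyruvate into the citric acid cycle. They were taken by symbol from a fixed list, and all 36 listed genes were found among the 49997 genes of the count tables. The list holds 3 glucose transporters, 2 hexokinases, glucose phosphate isomerase, 3 phosphofructokinases, 5 genes that set fructose 2,6-bisphosphate, 2 aldolases, 3 triose phosphate enzymes, 2 phosphoglycerate mutases, 3 enolases, pyruvate kinase, 2 lactate dehydrogenases, 2 monocarboxylate transporters, 4 pyruvate dehydrogenase kinases and 3 genes of pyruvate dehydrogenase and its phosphatase. Each of the 36 had enough counts to be tested.

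Glycolysis splits glucose into pyruvate in the cytosol and yields ATP without oxygen. Pyruvate is then either reduced to lactate and exported with a proton, or oxidised by the pyruvate dehydrogenase complex, whose kinases switch it off and whose phosphatases switch it on again. Many of these genes are known targets of the hypoxia-inducible factors, and blood stem cells and their embryonic precursors are known for their use of glycolysis.

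The RNA came from explants of the AGM (aorta-gonad-mesonephros), the part of the mouse embryo in which blood stem cells arise. Explants from C57BL/6J embryos were kept on a membrane at the surface of MyeloCult medium with hydrocortisone for 48 hours, either untreated (2 libraries) or with 5 µM CCCP (2 libraries), a protonophore that dissipates the proton gradient across the inner mitochondrial membrane. The labels name embryonic stages E10.5 and E11.5 in one place and E10.5 alone in another, and they do not say how many embryos went into a library. The comparison asks how loss of mitochondrial activity alters gene expression in the AGM.

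Total counts were 48216849 and 37360968 in untreated replicates 1 and 2, and 48827826 and 37579087 in CCCP replicates 1 and 2. Although the labels give the cell type as stem cells, the extraction notes speak of RNA from explants. Of 10 blood stem and progenitor markers, 9 had enough counts to be tested, and the whole list summed to 127 to 178 CPM (counts relative to library size, TMM-scaled), against 2436 to 4010 CPM for 7 mesenchymal markers and 1571 to 1837 CPM for 10 neuronal markers. In such mixed tissue, fewer cells of a type and less RNA per cell cannot be told apart.

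Promoter sequence is shown for members that either lay lower in the CCCP libraries by the smallest p-values (Pfkp, Pfkfb3 and Pdk1) or form the lactate dehydrogenase pair (Ldha and Ldhb), since the pathway is a classical target of hypoxia-inducible factors. The sequences are the 250 bases before 1 RefSeq start site of each gene (GRCm38.p6), 5′ to 3′ on the strand of the gene. The site is the first in list order and need not be the outermost. The stretches of Pfkp and Ldha lie inside the spans annotated for these genes, and those of Pfkfb3 and Pdk1 partly overlap theirs. Capitals mark the core letters of the hypoxia response element, ACGTG or GCGTG, on either strand, and the palindrome CACGTG holds ACGTG on both strands and counts once for each. Pfkp lies at chr13:6648772-6649021 (minus strand), Pfkfb3 at chr2:11553930-11554179 (minus strand), Pdk1 at chr2:71872974-71873223 (plus strand), Ldha at chr7:46845554-46845803 (plus strand) and Ldhb at chr6:142507958-142508207 (minus strand).
Pfkp: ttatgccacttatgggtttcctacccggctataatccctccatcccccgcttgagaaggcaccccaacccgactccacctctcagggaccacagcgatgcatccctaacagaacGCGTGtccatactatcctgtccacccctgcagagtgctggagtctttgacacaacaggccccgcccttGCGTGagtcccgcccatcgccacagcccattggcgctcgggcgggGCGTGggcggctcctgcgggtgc
Pfkfb3: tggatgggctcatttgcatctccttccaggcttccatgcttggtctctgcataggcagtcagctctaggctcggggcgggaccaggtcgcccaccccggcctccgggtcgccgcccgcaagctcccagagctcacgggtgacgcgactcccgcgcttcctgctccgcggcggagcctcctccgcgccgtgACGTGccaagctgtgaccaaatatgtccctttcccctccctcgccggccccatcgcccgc
Pdk1: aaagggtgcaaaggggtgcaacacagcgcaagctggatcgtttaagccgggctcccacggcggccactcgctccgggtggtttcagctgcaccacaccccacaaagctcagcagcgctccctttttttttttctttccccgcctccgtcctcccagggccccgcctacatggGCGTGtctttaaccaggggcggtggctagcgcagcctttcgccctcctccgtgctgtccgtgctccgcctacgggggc
Ldha: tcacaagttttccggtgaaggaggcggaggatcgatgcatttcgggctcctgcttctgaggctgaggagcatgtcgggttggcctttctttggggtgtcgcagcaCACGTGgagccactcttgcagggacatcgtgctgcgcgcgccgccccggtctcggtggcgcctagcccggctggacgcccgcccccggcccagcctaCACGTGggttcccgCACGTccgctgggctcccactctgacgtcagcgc
Ldhb: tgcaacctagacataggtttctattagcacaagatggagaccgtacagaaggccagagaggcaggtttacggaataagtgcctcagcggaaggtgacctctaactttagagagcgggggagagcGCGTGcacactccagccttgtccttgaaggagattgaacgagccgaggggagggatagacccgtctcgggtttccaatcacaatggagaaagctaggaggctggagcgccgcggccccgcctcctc

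In these stretches Pfkp held GCGTG 3 times and no ACGTG, Pfkfb3 held ACGTG 1 time, Pdk1 and Ldhb held GCGTG 1 time each, and Ldha held ACGTG 5 times. Over the full RefSeq windows of 300 bases, which run on for 50 bases past the start, 28 of the 33 members with a window (84.8%) held either motif in at least 1 window, against 46.7% of 27025 genes. ACGTG was present in 18 members (54.5%, against 21.8% of genes) and GCGTG in 22 (66.7%, against 35.2%). The 52 windows of members had a median GC content of 60.5%, against 52.7% over all 32851 windows, and both motifs hold a CG. Members also had more windows per gene, with 52 windows over 33 members against 32851 over 27025 genes. The part of GC content and of window number in these shares was not tested. No window was given for Slc2a3, Slc2a4 or Pdp1. A match describes letters only, and no binding was measured.

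None of the 36 members passed an adjusted p of 0.05 in edgeR's quasi-likelihood test, and neither did any of the 19837 genes tested (percent called 0%). At an unadjusted p under 0.05 stood 6 members (16.7%), against 14.6% of all genes tested. Of these, Slc2a4 and Ldhb were higher with CCCP (2 members, 5.56%, against 5.45% of genes), and Pfkp, Pfkfb2, Pfkfb3 and Pdk1 were lower (4 members, 11.1%, against 9.16% of genes). The members' shares thus lay near the background. Some other settings did call members at an adjusted p under 0.05: DESeq2 called Pfkp (1 of 36, 2.78%, against 2.99% of genes), and edgeR with no filter on low counts called Pfkp, Pfkfb3 and Ldhb (3 of 36, 8.33%, against 3.43% of genes). Their median log2 fold change was 0.00, with a middle range of -0.22 to 0.17, and 18 lay on each side of 0 (49.2% of all genes lay above it). Over all genes the median was -0.01 and the middle range -0.35 to 0.23. The CCCP and untreated libraries did not overlap for 10 members (27.8%), against 48.8% of all genes: Slc2a4, Pfkm, Pgam2, Ldhb and Pdhb lay above (24% of genes did), and Hk2, Pfkp, Pfkfb2, Pfkfb3 and Pdk1 lay below (24.8% of genes did). Shares and ratios are given without a test, since an exact permutation test cannot reach 0.05 with so few libraries.

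**Figure D1:**
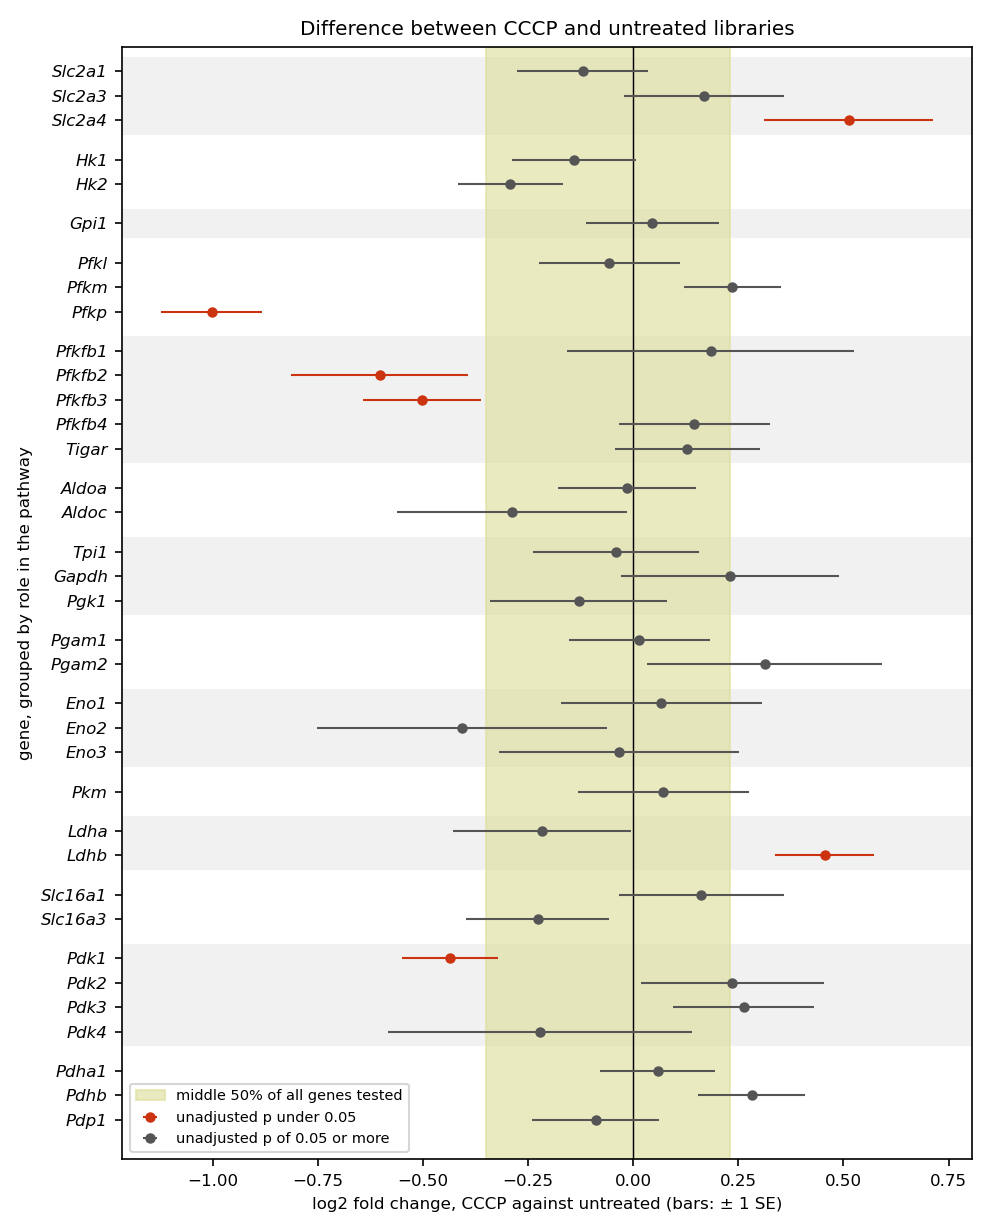
Log2 fold change of CCCP against untreated libraries for the 36 members (points, horizontal axis), with bars of 1 SE from edgeR, n = 2 per group; the band is the middle 50% of all genes tested, from -0.35 to 0.23. Pfkp stands farthest from 0 at -1.002, and the 6 members with an unadjusted p under 0.05 are in red.

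The untreated replicates stood far apart for much of the pathway. For 12 members both CCCP libraries lay between the untreated ones, with untreated replicate 1 lowest and replicate 2 highest: Gpi1, Pfkl, Pfkfb1, Aldoa, Tpi1, Gapdh, Pgk1, Pgam1, Eno1, Eno3, Pkm and Ldha. This order was seen in 33.3% of members and in 6.95% of all genes tested, of which 14.1% had the CCCP libraries between the untreated ones in either order. Over all 36 members, CPM in untreated replicate 2 was a median of 1.26 times that in replicate 1 (range 0.503 to 1.77), against 1.0005 over all genes, and CPM in CCCP replicate 2 was a median of 0.998 times that in CCCP replicate 1. Untreated replicate 1 is the library whose count column is headed with another name than its title. Summed marker CPM also differed between the untreated replicates 1 and 2. The mesenchymal list stood at 4010 and 2436, skeletal muscle (12 markers) at 516 and 336, hepatic (10 markers) at 1512 and 874, endothelial (9 markers) at 495 and 637 and erythroid (9 markers) at 2299 and 2868. Their part in the spread of the glycolytic genes was not tested.

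**Figure D2:**
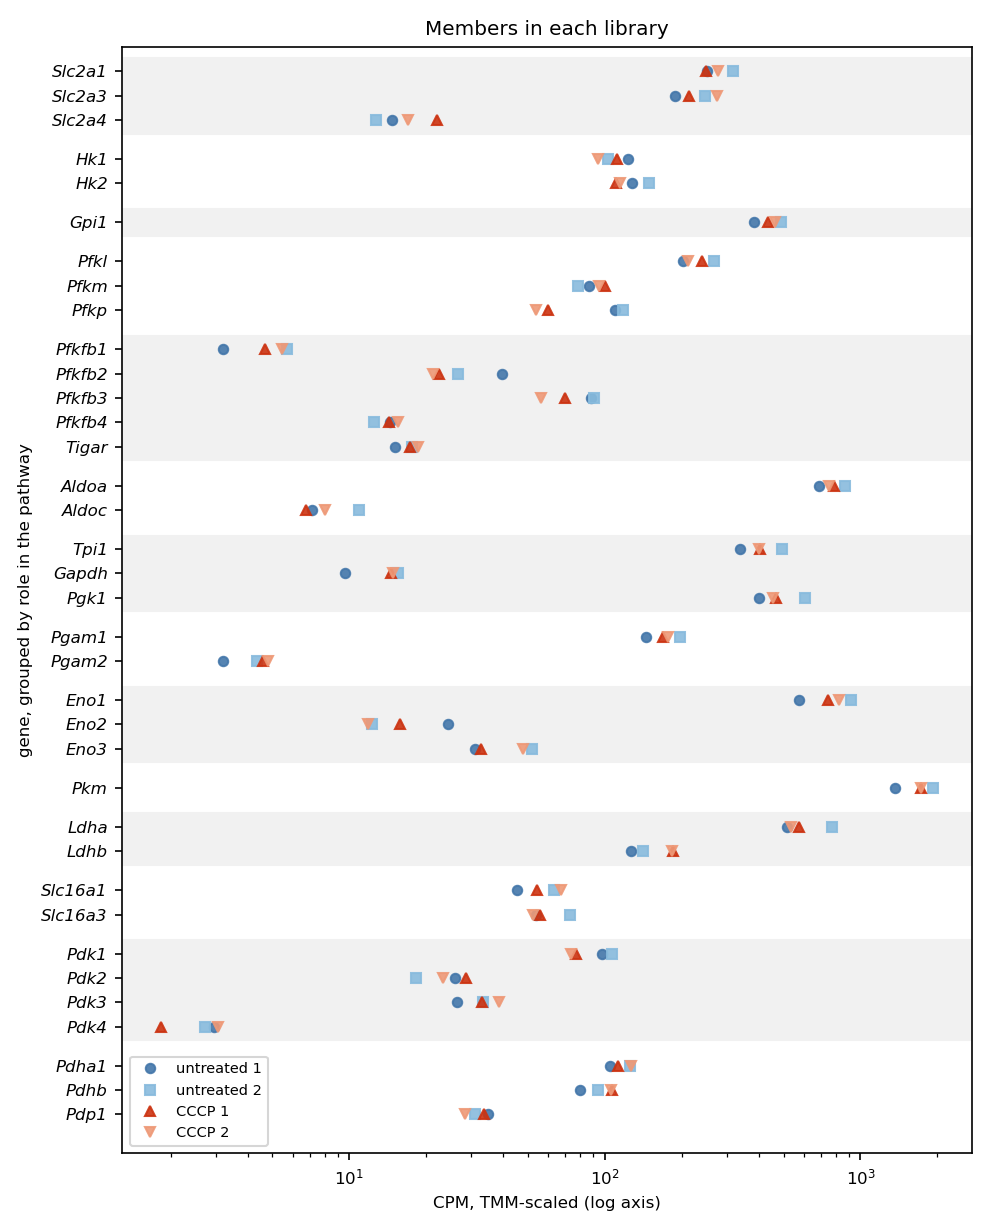
CPM of each member (log axis) in the 4 libraries, one symbol per library, genes grouped by role. From Gpi1 to Ldha the most abundant enzymes show untreated 1 at the left and untreated 2 at the right of both CCCP points, while for Pfkp, Pfkfb3 and Pdk1 both CCCP points lie to the left of both untreated points.

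Glucose enters through facilitative transporters of the SLC2 family. Slc2a1, the widespread basal transporter GLUT1, had the highest level per length of the transporters, at 252 and 318 CPM untreated and 248 and 276 CPM with CCCP. The groups overlapped (log2 fold change -0.12 ± 0.16 SE). Slc2a3, the high-affinity transporter GLUT3, ranged from 188 to 275 CPM and also overlapped (0.17 ± 0.19). Slc2a4, the insulin-responsive GLUT4 of muscle and fat, stood at 14.6 and 12.7 CPM untreated and at 22.1 and 16.9 CPM with CCCP. Both CCCP libraries lay above both untreated ones, with CCCP replicate 1 the highest of the 4, and the log2 fold change was 0.51 ± 0.20 (unadjusted p = 0.0434, edgeR adjusted p = 0.331). Markers of skeletal muscle, which also uses GLUT4, summed to 516 and 336 CPM untreated and 457 and 444 CPM with CCCP, with overlap. Of the 11 muscle markers tested, 4 lay above both untreated libraries (24% of all genes did) and 1 below (24.8% of all genes did). Acta1, skeletal actin, stood at 37.5 and 34.8 CPM untreated and at 68.3 and 71.4 CPM with CCCP, and Ttn, titin, stood at 84.6 and 43.3 CPM untreated and at 27.4 and 28.1 CPM with CCCP. Both were named after their values were seen, and the part of muscle RNA in Slc2a4 was not tested.

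Within this trio, measured as counts per kilobase of exon, Slc2a1 made up 71.2% in both untreated libraries, and 67.3% and 65.5% with CCCP. The share of Slc2a3 was 25.3% and 26.3% untreated, and 27.6% and 31.0% with CCCP. Both shares were separated between the groups, although neither gene's own CPM was. On the principal transcripts Slc2a1 took less, 59.2% and 59.1% untreated and 54.8% and 52.6% with CCCP, also without overlap.

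Hexokinase traps glucose as glucose 6-phosphate. Hk2, the inducible isoform that can dock on mitochondria, stood at 128 and 149 CPM untreated and at 111 and 115 CPM with CCCP. The CCCP libraries lay just below the untreated ones (log2 fold change -0.29 ± 0.13, unadjusted p = 0.0576). Hk1, the isoform found in most tissues, ranged from 94.1 to 123 CPM with overlap (-0.14 ± 0.15). Per kilobase of merged exon the pair were about even, with Hk1 at 42.3% to 51.5% of their sum over the 4 libraries. On the principal transcripts Hk1 took 58.6% and 50.5% untreated and 59.6% and 54.6% with CCCP. Which of the pair leads thus depends on the length used. Gpi1, which turns glucose 6-phosphate into fructose 6-phosphate, stood at 383 and 487 CPM untreated and at 436 and 462 CPM with CCCP, so the CCCP libraries lay between the untreated ones (0.05 ± 0.16).

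Phosphofructokinase 1 commits fructose 6-phosphate to glycolysis, and its platelet-type subunit Pfkp had the smallest p-value of all members. It is annotated on mm10 at chr13:6579874-6649060, on the minus strand. Pfkp stood at 109 and 118 CPM untreated and at 59.6 and 53.6 CPM with CCCP. Within each group the replicates lay close together, and the CCCP level was 0.499 times the untreated level. The log2 fold change was -1.002 ± 0.121 (unadjusted p = 0.000149, edgeR adjusted p = 0.144). Leaving out any single library gave -1.08 to -0.92. Pfkp shares 2.42% of its merged exon bases with Pitrm1 on the opposite strand, and the counting did not use strand. Of the 50-base stretches of its coding transcripts 15.4% also occur in those of Pitrm1. Pitrm1 itself had a log2 fold change of 0.15.

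Pfkl, the liver-type subunit and the highest of the trio per length, stood at 203 and 267 CPM untreated and at 240 and 212 CPM with CCCP, with overlap (-0.06 ± 0.17). Pfkm, the muscle-type subunit, ranged from 78.4 to 86.5 CPM untreated and from 94.6 to 99.7 CPM with CCCP. Its groups were separate, but the test did not pass (0.24 ± 0.12, unadjusted p = 0.0876). Of the summed phosphofructokinase 1 counts per kilobase of exon, Pfkp took 11.2% and 10.3% untreated and 5.54% and 5.50% with CCCP. Pfkm took 28.9% and 22.4% untreated and 30.2% and 31.7% with CCCP, and Pfkl kept 59.9% to 67.3% over all 4. The share of Pfkp depends on the length it is divided by, since the merged exons of the annotation measure 11760 bases and the principal transcript 4145. On the principal transcript its shares were 23.7% and 22.2% untreated and 12.6% and 12.5% with CCCP, so the groups stayed apart. Neither length takes the trend of fold change with length, given below, out of these shares.

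Fructose 2,6-bisphosphate, the strongest activator of phosphofructokinase 1, is made and removed by the PFKFB enzymes. Pfkfb3, the isoform with the highest kinase activity, stood at 87.9 and 90.5 CPM untreated and at 69.7 and 56.2 CPM with CCCP. Both CCCP libraries lay below the untreated pair, whose values were close (log2 fold change -0.50 ± 0.14, unadjusted p = 0.011, edgeR adjusted p = 0.242). Pfkfb2, known as the heart isoform, stood at 39.5 and 26.7 CPM untreated and at 22.4 and 21.3 CPM with CCCP. The untreated replicates were farther apart than untreated replicate 2 was from the CCCP libraries, and the log2 fold change of -0.60 ± 0.21 (unadjusted p = 0.0276, edgeR adjusted p = 0.296) became -0.28 without untreated replicate 1. Pfkfb1, the liver and muscle isoform, stayed between 3.22 and 5.70 CPM, and Pfkfb4, the testis isoform, between 12.5 and 15.5 CPM, both with overlap. Tigar, which removes fructose 2,6-bisphosphate and so slows glycolysis, ranged from 15.1 to 18.6 CPM with overlap (0.13 ± 0.17).

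Of the 4 PFKFB genes per kilobase of merged exon, Pfkfb3 made up 68.2% and 71.0% untreated. With CCCP it made up 68.0% and 62.1%, the lowest in CCCP replicate 2. On the principal transcripts its shares were 53.0% and 57.9% untreated and 53.8% and 47.5% with CCCP, with overlap. Its shares in reads not divided by length overlapped too. Summed over the 5 genes of this step, the CPM was 160 and 153 untreated and 128 and 117 with CCCP.

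The enzymes from aldolase to pyruvate kinase, which yield the ATP and pyruvate of glycolysis, held the most abundant members, and none of the 11 stood at an unadjusted p under 0.05, where 14.6% of all genes tested did. Pkm, pyruvate kinase, ranked 117 of 19837 genes by CPM per kilobase of merged exon, ahead of all other members. On the principal transcripts Aldoa ranked ahead of it. There Aldoa was divided by only 741 bases, against 2418 bases of merged exon, so that order depends on the length used. Pkm stood at 1363 and 1929 CPM untreated and at 1729 and 1730 CPM with CCCP, a log2 fold change of 0.07 ± 0.20. The CCCP libraries were nearly equal and lay between the untreated ones. Eno1, the main enolase, showed the same order, with 573 and 922 CPM untreated and 744 and 821 CPM with CCCP (0.07 ± 0.24).

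Aldoa, the main aldolase, stood at 688 and 870 CPM untreated and at 786 and 755 CPM with CCCP (-0.01 ± 0.16). Tpi1, which interconverts the triose phosphates, stood at 337 and 491 CPM untreated and at 404 and 401 CPM with CCCP (-0.04 ± 0.20). For Pgam1, the main phosphoglycerate mutase, the values were 144 and 197 CPM untreated and 168 and 176 CPM with CCCP (0.01 ± 0.17). In each of these the untreated replicates enclosed the CCCP values, so no difference was detectable against that spread.

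The tissue-restricted isoforms of these steps were rare. Aldoc, the brain aldolase, made up 0.718% to 1.04% of the aldolase counts per kilobase, and Pgam2, the muscle mutase, took 4.31% and 4.29% of its step untreated and 5.21% and 5.25% with CCCP. Pgam2 itself reached only 3.22 to 4.82 CPM. Eno2, the neuronal enolase, stood at 24.4 CPM in untreated replicate 1 and at 11.8 to 15.8 CPM in the other 3 libraries. Eno3, the muscle enolase, ranged from 30.9 to 51.7 CPM, but 22.9% of its exon bases overlap Pfn1 on the opposite strand, so its counts are uncertain.

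Gapdh, the abundant glyceraldehyde phosphate dehydrogenase, was counted at only 9.59 to 15.5 CPM. Of the 50-base stretches of its coding transcripts 58.4% also occur in other annotated genes, among them 215 pseudogenes, and reads with several alignments were not counted. Its level cannot be read from these counts. The same share was 68.0% for Pgk1, phosphoglycerate kinase (401 to 607 CPM, log2 fold change -0.13 ± 0.21), 49.5% for Eno1, 41.5% for Pgam1, 23.7% for Pkm, 24.5% for Gpi1 and 6.83% for Tpi1. In stretches of 100 bases it was 53.1% for Gapdh, 67.0% for Pgk1, 39.5% for Eno1 and 39.7% for Pgam1, but 7.52% for Pkm, 7.04% for Gpi1 and 0.721% for Tpi1. How many reads were lost in this way was not tested.

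Lactate dehydrogenase is a tetramer of LDHA subunits, which favour the making of lactate, and LDHB subunits, which favour its use. Ldhb stood at 127 and 142 CPM untreated and at 185 and 183 CPM with CCCP. Both CCCP libraries lay above both untreated ones, and their gap was smaller than that between the untreated replicates. The log2 fold change was 0.46 ± 0.12 (unadjusted p = 0.00794, edgeR adjusted p = 0.227), a level 1.37 times the untreated level. Ldha stood at 514 and 772 CPM untreated and at 573 and 535 CPM with CCCP, with overlap (-0.22 ± 0.21). Its sign rests on the untreated replicates: the log2 fold change was -0.47 without replicate 1 and 0.14 without replicate 2.

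The ratio of Ldha to Ldhb did not overlap between the groups. Counted in reads, there were 4.06 and 5.45 of Ldha to each of Ldhb untreated, and 3.10 and 2.92 with CCCP. On the log2 scale the ratio was 0.64 lower with CCCP, whichever length the counts were divided by. A fixed length cancels in the difference, but this does not remove the trend of fold change with length given below. With that trend removed, Ldha stood at -0.13 and Ldhb at 0.28 on merged exons, and at -0.36 and 0.26 on principal transcripts. Leaving out 1 library at a time gave a difference in the log2 ratio of -0.86 to -0.43. Per kilobase of merged exon Ldha took 49.8% and 57.1% of the pair untreated and 43.1% and 41.6% with CCCP. Its merged exons (5342 bases) are much longer than its principal transcript (1677 bases), on which its shares were 75.9% and 80.9% untreated and 70.7% and 69.4% with CCCP. Which of the pair is the more abundant thus depends on the length used, while the lower share of Ldha with CCCP does not. Of the 50-base stretches of Ldhb 20.99% also occur in the pseudogene Gm5514, and of those of Ldha 10.4% occur in 14 pseudogenes.

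**Figure D3:**
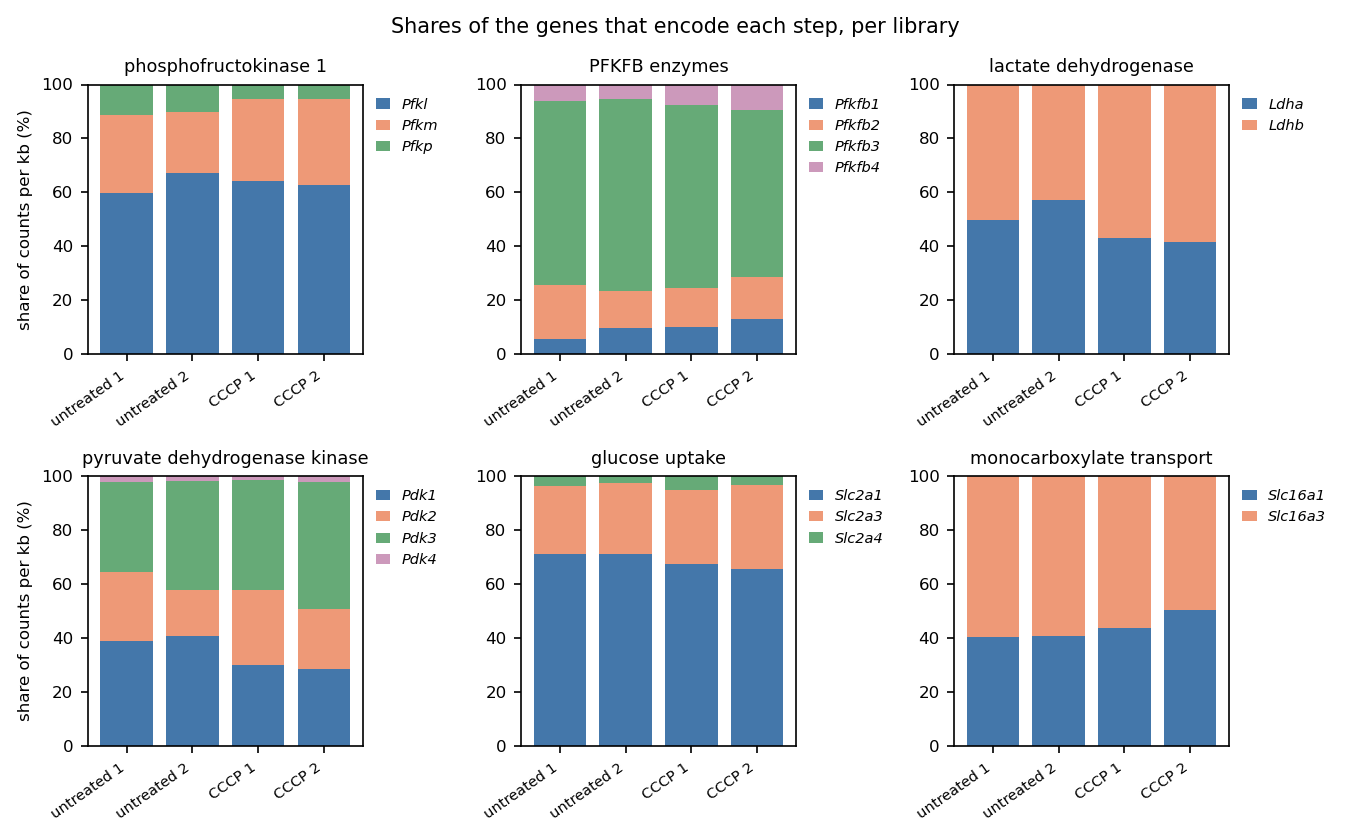
Share of each gene in the summed counts per kilobase of merged exon of its step (vertical axis, percent), for the 2 untreated and 2 CCCP libraries. Pfkp takes 11.2% and 10.3% of phosphofructokinase 1 untreated and 5.54% and 5.50% with CCCP, Ldha takes 49.8% and 57.1% against 43.1% and 41.6%, and Pdk1 takes 38.8% and 40.6% against 30.1% and 28.4%.

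Monocarboxylate transporters carry lactate and pyruvate across the plasma membrane with a proton. Slc16a3, the exporter MCT4 of highly glycolytic cells, was the higher of the pair per length, at 53.6 and 73.2 CPM untreated and 55.9 and 52.4 CPM with CCCP (log2 fold change -0.23 ± 0.17). Slc16a1, the widespread carrier MCT1, ranged from 45.3 to 67.2 CPM (0.16 ± 0.20). Both overlapped between groups. The share of Slc16a1 in the pair per kilobase was 40.2% and 40.7% untreated and 43.5% and 50.5% with CCCP, the highest in CCCP replicate 2. The exons of Slc16a3 overlap Csnk1d on the opposite strand over 10.6% of their length.

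Pyruvate dehydrogenase kinases phosphorylate the complex and close the entry of pyruvate into the citric acid cycle. Pdk1, the kinase induced in hypoxia, stood at 97.1 and 107 CPM untreated and at 77.1 and 73.5 CPM with CCCP. Both CCCP libraries lay below both untreated ones, by a log2 fold change of -0.44 ± 0.12 (unadjusted p = 0.00886, edgeR adjusted p = 0.230). Pdk3, the highest of the kinases per kilobase of merged exon on average over the 4 libraries, stood at 26.4 and 33.4 CPM untreated and at 33.1 and 38.6 CPM with CCCP, with overlap (0.26 ± 0.17). Pdk2, the kinase of most tissues, ranged from 18.2 to 28.7 CPM (0.24 ± 0.22), and Pdk4, the kinase of fasting, from 1.83 to 3.06 CPM (-0.22 ± 0.36).

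Among the 4 kinases per kilobase, Pdk1 took 38.8% and 40.6% untreated and 30.1% and 28.4% with CCCP, and Pdk3 took 33.3% and 40.1% untreated and 40.8% and 47.0% with CCCP. On the length of the principal transcripts Pdk1 took 43.0% and 45.4% untreated and 33.9% and 32.4% with CCCP, and Pdk3 took 28.7% and 34.9% untreated and 35.7% and 41.8% with CCCP. Averaged over the 4 libraries, Pdk1 stood above Pdk3 on that length (17.1 against 15.6 CPM per kilobase). On either length the largest share lay with Pdk1 in both untreated libraries and with Pdk3 in both CCCP libraries. Dividing by a length does not remove the trend of fold change with length given below. With that trend removed, Pdk1 stood at -0.29 and Pdk3 at 0.14 on merged exons, and at -0.31 and 0.16 on principal transcripts. In reads not divided by length Pdk1 led in all 4 libraries, with 63.7% and 66.2% untreated and 54.8% and 53.1% with CCCP. The summed level of the kinases per kilobase was 38.6 and 40.5 untreated and 39.6 and 39.9 with CCCP, in CPM per kilobase, and overlapped between the groups. In CPM the sum was 152 and 161 untreated and 141 and 138 with CCCP, without overlap.

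Pyruvate dehydrogenase itself is built on Pdha1 and Pdhb, the alpha and beta subunits of its first enzyme. Pdhb stood at 80.0 and 94.4 CPM untreated and at 106 and 106 CPM with CCCP. Its CCCP libraries lay above the untreated ones (log2 fold change 0.28 ± 0.13, unadjusted p = 0.067). Pdha1 ranged from 105 to 126 CPM with overlap (0.06 ± 0.14), and 20.9% of its exon bases overlap Map3k15 on the opposite strand. Pdp1, the phosphatase that reactivates the complex, ranged from 28.26 to 34.96 CPM with overlap (-0.09 ± 0.15). Summed kinases stood at 0.450 and 0.397 of the summed Pdha1 and Pdhb per kilobase untreated and at 0.377 and 0.366 with CCCP, the lowest ratio in both CCCP libraries. The trend of fold change with length, given below, was not taken out of this ratio. With that trend removed on merged exons, Pdhb stood at 0.14 (edgeR unadjusted p = 0.250).

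Fold changes in these libraries moved with the length of the gene. Over all genes tested, in deciles of exon length, the median log2 fold change was 0.22 in the shortest and -0.36 in the longest. By merged exon length Pfkp and Pfkfb2 lie in decile 10, the longest, Pdk1 in decile 9, Pfkfb3 in decile 8 and Ldhb in decile 2. With the trend on merged exon length removed, Pfkp stood at -0.69 (unadjusted p = 0.00313, edgeR adjusted p = 0.299), Pfkfb3 at -0.36, Pdk1 at -0.29, Pfkfb2 at -0.31, Ldhb at 0.28 and Slc2a4 at 0.46. With the trend on the principal transcript removed instead, a length known for all 36 members and for 76.5% of the genes tested, Pfkp stood at -0.95 (edgeR adjusted p = 0.122), Pfkfb3 at -0.42, Pdk1 at -0.31, Pfkfb2 at -0.59, Ldhb at 0.26 and Slc2a4 at 0.45. All 6 kept their sign under both. With the merged exon trend removed, Pfkfb2, Pdk1 and Slc2a4 no longer had an unadjusted p under 0.05 (0.105, 0.0543 and 0.0571) and Pfkfb4 did (0.0276), so that 4 members stood below it (11.1%, against 11.9% of genes). Pfkfb4, whose merged exons measure 11869 bases and whose principal transcript 3488, stood at 0.48 with the merged exon trend removed. It stood at 0.14 with the principal transcript trend removed. That second removal left 5 members at an unadjusted p under 0.05 (13.9%, against 13.6% of genes), without Slc2a4 (0.0615). With a trend on GC content removed instead, chosen after seeing the data, 6 members stood there (16.7%, against 10.6% of genes). Hk2 and Pdhb were then among them (0.0178 and 0.0249), while Slc2a4 and Pfkfb2 were not (0.105 and 0.0555).

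**Figure D4:**
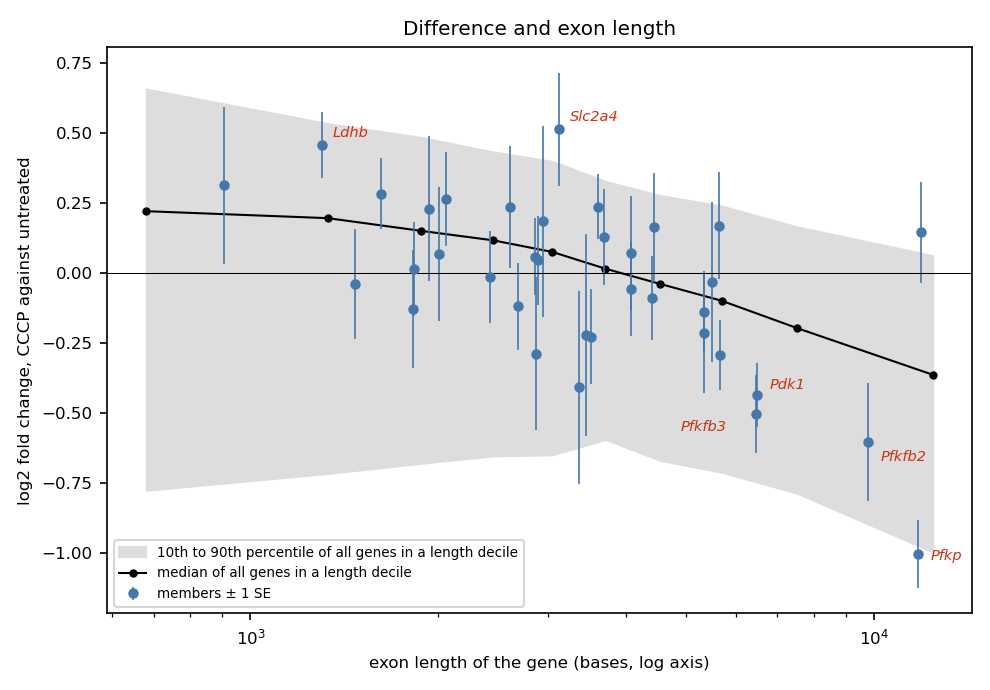
Log2 fold change (vertical axis) against merged exon length (log axis) for the 36 members with bars of 1 SE, over the median and the 10th to 90th percentile of all genes in each length decile. The median falls from 0.22 in the shortest decile to -0.36 in the longest, and Pfkp at -1.002 lies at the lower edge of the longest decile.

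Genes next to the pathway were read from 9 lists of 83 genes, chosen with earlier results of these data known. That choice may have shaped the shares given here. Of the 83 genes, 75 had enough counts. None had an adjusted p under 0.05 in edgeR's test, and 24 stood at an unadjusted p under 0.05, 10 higher and 14 lower with CCCP (32.0%, against 14.6% of all genes tested). Their median log2 fold change was -0.04. The 12 hypoxia targets outside glycolysis had a median of -0.44, with 6 of 12 lower at an unadjusted p under 0.05 (9.16% of all genes were) and none higher, and with 9 of 12 below both untreated libraries (24.8% of all genes were). Vegfa, the angiogenic factor, stood at 256 and 245 CPM untreated and at 149 and 131 CPM with CCCP (-0.83 ± 0.12, edgeR adjusted p = 0.144). Kdm3a, a histone demethylase, stood at 184 and 182 CPM untreated and at 134 and 128 CPM with CCCP (-0.48 ± 0.11, edgeR adjusted p = 0.204). Endothelial markers stood at 495 and 637 CPM untreated and at 490 and 480 CPM with CCCP. Both CCCP sums lay just below the lower untreated one, and the untreated replicates were farther apart. Of the 9 markers, 4 lay below both untreated libraries, against 24.8% of all genes, and none above. The part of endothelial RNA in the values of the hypoxia targets was not tested. The hypoxia factors' own subunits are named here after their values were seen. Hif1a ranged from 189 to 204 CPM untreated and from 160 to 189 CPM with CCCP, with overlap (-0.17 ± 0.13). Epas1 ranged from 45.8 to 46.8 CPM untreated and from 24.0 to 36.6 CPM with CCCP (-0.61 ± 0.21, edgeR adjusted p = 0.291). Arnt, the partner subunit, stood at 99.3 and 92.1 CPM untreated and at 91.2 and 94.4 CPM with CCCP, with overlap (-0.04 ± 0.11).

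In the pentose phosphate branch, which leaves glycolysis at glucose 6-phosphate, the median over 8 genes was 0.33, with 4 of 8 higher at an unadjusted p under 0.05 (5.45% of all genes were) and none lower. This list too was chosen with earlier results known. Of the 8, 6 lay above both untreated libraries (24% of all genes did) and 1 below (Rpe, named after its value was seen). Taldo1, transaldolase, stood at 85.3 and 93.6 CPM untreated and at 122 and 130 CPM with CCCP (0.50 ± 0.12, edgeR adjusted p = 0.206). Mdh1, the cytosolic malate dehydrogenase of the shuttle that returns NADH to mitochondria, stood at 140 and 153 CPM untreated and at 203 and 211 CPM with CCCP (0.50 ± 0.12, edgeR adjusted p = 0.204). It was the 1 gene of a separate list of 5 shuttle genes that was higher at an unadjusted p under 0.05, and none was lower. Of the other 8 genes around pyruvate entry, 1 was higher at an unadjusted p under 0.05 (Pcx, pyruvate carboxylase, 0.34 ± 0.13, named after its value was seen), and none was lower. At the same threshold 1 of 9 glycogen and hexose genes was higher and 1 lower, and 3 of 9 regulators of glycolysis were lower. Of 12 other transporters 2 were higher and 2 lower, and of 10 other isozymes 1 was higher and 2 lower. Neither of the 2 tested gluconeogenic genes stood below it in either direction. Over all genes tested, 5.45% were higher and 9.16% lower at that threshold.

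Slc2a2, the liver transporter GLUT2, had 146 and 70 counts untreated and 17 and 2 with CCCP (log2 fold change -3.48 ± 0.75, edgeR adjusted p = 0.186). All 10 hepatic markers, a list also chosen with earlier results known, were lower at an unadjusted p under 0.05 (9.16% of all genes were). Their sum was 1512 and 874 CPM untreated and 6.47 and 71.4 CPM with CCCP. Pfkfb1, the liver and muscle isoform among the members, overlapped between the groups, at 3.22 and 5.70 CPM untreated and 4.68 and 5.43 CPM with CCCP. Pfkl, the liver-type subunit, overlapped too, at 203 and 267 CPM untreated and 240 and 212 CPM with CCCP. The part of hepatic RNA in the members was not tested.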

How the data were processed

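Poly(A) RNA of 4 explant libraries was analysed. The authors deposited raw counts, summed over the exons of each gene by featureCounts 2.0.3 on the mm10 RefSeq annotation, per the file headers, after alignment with HISAT2, per the submitters' processing notes. No strand option, no option for read pairs and no option for multi-mapping reads was set, per the file headers, although the labels describe a directional library. Genes that overlap on opposite strands, and those with pseudogene copies, are thus uncertain. Groups and replicate numbers came from the sample titles. In the file of untreated replicate 1 the count column is named UM1 where the title has UN_rep1, and GEO's record of the file was followed; its identity was not tested further. In the labels, nothing says that replicates are separate cultures or litters, so p-values measure only the spread between these libraries, which may be technical.

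Counts were tested with edgeR 4.0.16 in R 4.3.3 (glmQLFit and glmQLFTest, TMM, filterByExpr with a minimum count of 10 and a minimum total of 15, group as the sole term, two-sided, Benjamini-Hochberg over all 19837 genes tested, threshold 0.05). The script was tested on simulated data. CPM are TMM-scaled, and SE is the log2 fold change over the square root of F. A count of 3, the floor of detection, was 0.0599 to 0.0827 CPM and covers counting error only.

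The deposited lengths also count copies on alternate contigs, where all 226 rows found only there held 0 counts, so levels per kilobase used exon length on the reference chromosomes; principal transcripts (GENCODE vM21, APPRIS tags) gave a second length. Shared sequence was the share of 50-base stretches of coding transcripts found in another gene. Named genes followed a rule: each member with an unadjusted p under 0.05, the member highest per kilobase in each role, and up to 6 companion genes with the smallest p. A companion gene that this rule names is not reported here. Members and lists were chosen with earlier results of these data known. Alternatives were another scaling (DESeq2 1.42.0 size factors, or total counts), no filter, a minimum count of 50, DESeq2, trends on length or GC content removed, a replicate block, and each library left out in turn. No protein sequence was used here.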

Additional observations from a re-analysis of the deposited data

How the results depend on the processing

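In edgeR, 0 of 19837 genes and 0 of 36 members had an adjusted p under 0.05, with 2899 and 6 at an unadjusted p under 0.05. Adjusted calls over all genes, members and companion genes numbered 1107, 3 (Pfkp, Pfkfb3 and Ldhb) and 10 with no filter (companion median -0.0282), and 594, 1 (Pfkp) and 6 with DESeq2. A replicate block used numbers that pair the libraries by label alone (2 pairs, correlation of deviations 0.36). With it the adjusted calls were 2118, 5 (Pfkp, Pfkfb2, Pfkfb3, Ldhb and Pdk1) and 18. At an unadjusted p under 0.05 the block had 10 members (27.8%, against 27.6% of genes). The block with the exon length trend removed gave 1542, 1 (Pfkp) and 21, with 11 such members and a companion median of 0.00284. The block together with a GC correction, an alternative chosen after seeing the data, gave 651, 2 (Pfkp and Pfkfb3) and 11, with 13 such members and a companion median of -0.0190. The block with the principal transcript trend removed, also chosen later, gave 1516, 3 (Pfkp, Pfkfb2 and Pfkfb3) and 20, with 12 such members. For the block with any trend removed, the share of all genes at an unadjusted p under 0.05 was not computed. Without the block, the principal transcript trend moved the companion median to -0.0719 and total counts moved it to -0.10. Leaving out 1 library at a time gave 10 to 46 genes, 0 members and 0 to 1 companion genes; members at an unadjusted p under 0.05 were 11 without untreated replicate 1, 13 without untreated replicate 2 and 2 without either CCCP replicate. The members' median then ranged from -0.15 to 0.21 and the companion median from -0.0581 to 0.00978. The cause of these shifts was not tested. Pfkp, Pfkfb2, Pfkfb3, Pdk1, Ldhb and Slc2a4 kept their direction in all 16 alternatives. Leaving out a library gave Pfkp -1.08 to -0.92, Pfkfb3 -0.66 to -0.35, Ldhb 0.39 to 0.57, Pdk1 -0.49 to -0.34 and Slc2a4 0.31 to 0.70. With 2 libraries per group and a biological coefficient of variation of 21.9%, small differences were not detectable.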
